A study of Mus musculus with 106 samples.

Results

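The mouse Cyp3a genes encode cytochrome P450 enzymes of subfamily 3A, and 8 of them are described here: Cyp3a11, Cyp3a13, Cyp3a16, Cyp3a25, Cyp3a41a, Cyp3a44, Cyp3a57 and Cyp3a59. They are 8 of the 21887 protein-coding genes of the gene table used. They were taken by name, with the mm10 gene body and 10 kb on either side as the window of each gene. For each window the peaks of every chromatin immunoprecipitation (ChIP) list were counted by their centre, and the percent of each gene body inside regions of gained accessibility (ATAC-seq) was measured. The set was selected on these same peak counts and coverages, which were known when the genes were listed, so all values below are descriptions and none is tested.

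The series is on mouse liver and asks how the forkhead factor Foxa2 bears on binding and action of ligand-activated nuclear receptors. The groups used were WT livers and Foxa2-KO livers, given vehicle, the FXR agonist GW4064, or one of the LXR agonists GW3965 and T09. All 27 peak lists at hand were used: 23 from ChIP-seq (5 for Foxa2, all in WT, and for both genotypes 8 for PPAR, 6 for LXR and 4 for FXR) and 4 from ATAC-seq. Each list stands for 1 group or, for ATAC-seq, for 1 comparison of ligand over vehicle.

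The genotype of the KO, where the labels give it, is Foxa2loxP/loxP;Alfp.Cre. Alfp.Cre is driven by albumin and alpha-fetoprotein control elements, which directs the deletion to the liver epithelium. Livers for ATAC, Foxa2 and FXR came from animals of 8 to 12 weeks, 4 h after the ligand. Those for LXR and PPAR were C57BL/6 of 3 months, with the time given only by the series text. That text speaks of injection and the treatment protocol, where there is one, of oral gavage. No dose is given. Labels of the LXR samples write the agonist as GW with no number, and that name is kept here. Antibodies were raised against LXRα and PPARα. Groups held 1 labelled sample (Foxa2, and LXR in WT), 3 (LXR in KO), 2 (FXR and PPAR) or 2 to 3 per arm (ATAC).

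Each group or comparison is 1 list over its samples, so no value has a spread over animals, and sequencing depth is unknown. They held 4348 to 25318 Foxa2 peaks, 3901 to 22705 FXR peaks, 161 to 14219 LXR peaks, 110 to 4094 PPAR peaks and 60528 to 82561 gained regions. Of 12 hepatocyte markers, 9 to 11 carried a Foxa2 peak in each Foxa2 list, against 4 to 8 of 12 sinusoidal endothelial, 0 to 3 of 12 stellate, 0 or 1 of 12 Kupffer cell and 1 to 3 of 10 cholangiocyte markers. The share of all coding genes was 12.1% to 39.2%. FXR peaks did not favour hepatocyte markers. Over the 4 FXR lists they were at 0 to 4 hepatocyte, 1 to 3 sinusoidal endothelial, 0 to 4 stellate and 0 to 4 Kupffer cell markers. They were also at 1 to 5 cholangiocyte markers, where 6.8% to 30.5% of coding genes had one. Gained regions covered 25% or more of the body of 1 to 6 hepatocyte markers per comparison and of 0 markers of the other cell types. Of all coding genes, 1.54% to 2.26% were so covered. In bulk liver, a difference within cells and one in the mix of cells cannot be told apart.

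CYP3A enzymes sit in the endoplasmic reticulum and oxidise steroids, bile acids and a wide range of drugs. In mouse liver, Cyp3a11 is the classic gene switched on through the xenobiotic receptor PXR (Nr1i2), which binds paired receptor half-sites together with RXR. FXR is the bile acid receptor and LXR the oxysterol receptor of liver, and both also pair with RXR. Foxa2 is a pioneer factor that binds forkhead motifs in closed chromatin.

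In mm10, 7 of the 8 genes lay in a 770 kb cluster on chromosome 5. From its left end these were Cyp3a57 (chr5:145345149-145390926), Cyp3a16 (chr5:145436309-145469740), Cyp3a41a (chr5:145694049-145720136), Cyp3a44 (chr5:145773983-145805891), Cyp3a11 (chr5:145854607-145879854), Cyp3a25 (chr5:145977192-146009644) and Cyp3a59 (chr5:146079208-146114978). Cyp3a57 and Cyp3a59, at the ends, lay on the plus strand and the other 5 on the minus strand. Cyp3a13 (chr5:137892933-137925610, minus strand) lay 7.42 Mb away, outside the cluster. The table put 11 further genes inside the cluster, 9 of them pseudogenes. No windows of neighbouring members overlapped, so each peak was counted for 1 member.

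The promoter sequences are shown because Foxa2 peaks and gained accessibility fell on some of these promoters and not on others. RefSeq promoters (GRCm38.p6) were found for all 8 genes and were searched over the 250 bases before the start site. Bases printed are those outside the gene model. Capitals mark the forkhead heptamer TGTTTAC, the receptor half-site AGGTCA and its variant AGTTCA. A half-site on the other strand reads as TGACCT, and the variant there reads as TGAACT.
Cyp3a11, chr5:145879855-145880104, minus strand: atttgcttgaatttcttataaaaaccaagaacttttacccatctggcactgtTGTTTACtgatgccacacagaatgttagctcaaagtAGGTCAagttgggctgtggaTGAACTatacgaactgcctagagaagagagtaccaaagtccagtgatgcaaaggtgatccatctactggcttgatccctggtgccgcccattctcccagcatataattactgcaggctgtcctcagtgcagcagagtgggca
Cyp3a44, chr5:145805892-145806124, minus strand: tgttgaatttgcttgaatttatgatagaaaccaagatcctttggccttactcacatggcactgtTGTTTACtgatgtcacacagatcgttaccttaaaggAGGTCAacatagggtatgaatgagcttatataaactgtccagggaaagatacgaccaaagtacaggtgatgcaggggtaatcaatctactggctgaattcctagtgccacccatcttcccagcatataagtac
Cyp3a25, chr5:146009645-146009868, minus strand: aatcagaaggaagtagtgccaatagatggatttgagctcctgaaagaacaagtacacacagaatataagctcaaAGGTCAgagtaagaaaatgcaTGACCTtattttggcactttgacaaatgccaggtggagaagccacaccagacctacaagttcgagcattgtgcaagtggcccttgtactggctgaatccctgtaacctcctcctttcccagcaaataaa
Cyp3a59, chr5:146079008-146079207, plus strand: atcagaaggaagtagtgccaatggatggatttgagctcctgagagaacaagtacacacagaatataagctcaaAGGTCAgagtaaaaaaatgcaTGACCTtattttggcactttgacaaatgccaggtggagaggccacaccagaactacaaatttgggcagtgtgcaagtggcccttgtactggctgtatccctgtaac
Cyp3a57, chr5:145345019-145345148, plus strand: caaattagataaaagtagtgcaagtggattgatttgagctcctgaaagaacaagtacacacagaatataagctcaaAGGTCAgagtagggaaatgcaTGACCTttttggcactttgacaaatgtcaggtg

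The promoters fell into families. Over 250 bases, Cyp3a25 and Cyp3a59 were 94.8% identical, Cyp3a57 and Cyp3a59 90.1%, and Cyp3a25 and Cyp3a57 88.9%. Cyp3a41a, Cyp3a44 and Cyp3a16 formed another family, with 94.4% between Cyp3a41a and Cyp3a44 and 92.9% between Cyp3a16 and Cyp3a44. Cyp3a11 stood nearest to Cyp3a16, at 76.6%. Cyp3a13 was no more than 58% identical to any of the other 7.

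The exact forkhead heptamer TGTTTAC was found on either strand in 4 of the 8 promoters, those of Cyp3a11, Cyp3a16, Cyp3a41a and Cyp3a44, against 2.58% of 17492 coding promoters. In Cyp3a11 it lay 198 to 192 bases before the start site, and in Cyp3a44 186 to 180 bases before it. Those 4 promoters were 72.5% to 94.4% identical to each other, so they are not 4 independent cases. The other heptamer searched, TGTTTGC, was in none of the 8 and in 3.9% of all promoters. AGGTCA was in the promoters of Cyp3a11, Cyp3a25, Cyp3a44, Cyp3a57 and Cyp3a59, against 12.6% of all. AGTTCA was in those of Cyp3a11 and Cyp3a41a, against 10.9%. Cyp3a25, Cyp3a57 and Cyp3a59 each held AGGTCA followed by TGACCT with 15 bases between them. That arrangement was noticed in these sequences and then counted, so finding it in them was fixed beforehand. It was in 3 of the 17492 promoters (0.0172%), which are those 3 genes. The 3 promoters were 88.9% to 94.8% identical to each other, so they are not separate finds. No conclusion is drawn from the share. The exact consensus pairs of FXR (an inverted repeat, IR-1), LXR (a direct repeat, DR-4) and PXR (an everted repeat, ER-6) were in no promoter of the 17492, so they say nothing about these genes. A match is a run of letters and not a measured binding site.

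Foxa2 lay at 7 of the 8 genes in WT liver. A peak was centred in the window of 7 members with GW3965 (36.9% of coding genes had one), of 7 with GW4064 (38.8%), of 7 with T09 (39.2%), of 6 with vehicle (12.1%) and of 3 with the vehicle arm of the GW4064 experiment (17.8%). Over all 5 lists, 7 members had a peak in at least 1 list (55.9% of coding genes) and 3 members, Cyp3a11, Cyp3a16 and Cyp3a44, in every list (9.98%). Cyp3a41a, a female-predominant liver form, was the member with none. No member's peak was among the first 500 entries of any Foxa2 list, and the meaning of the order of those lists, which carry no q-value, is not stated.

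**Figure D1:**
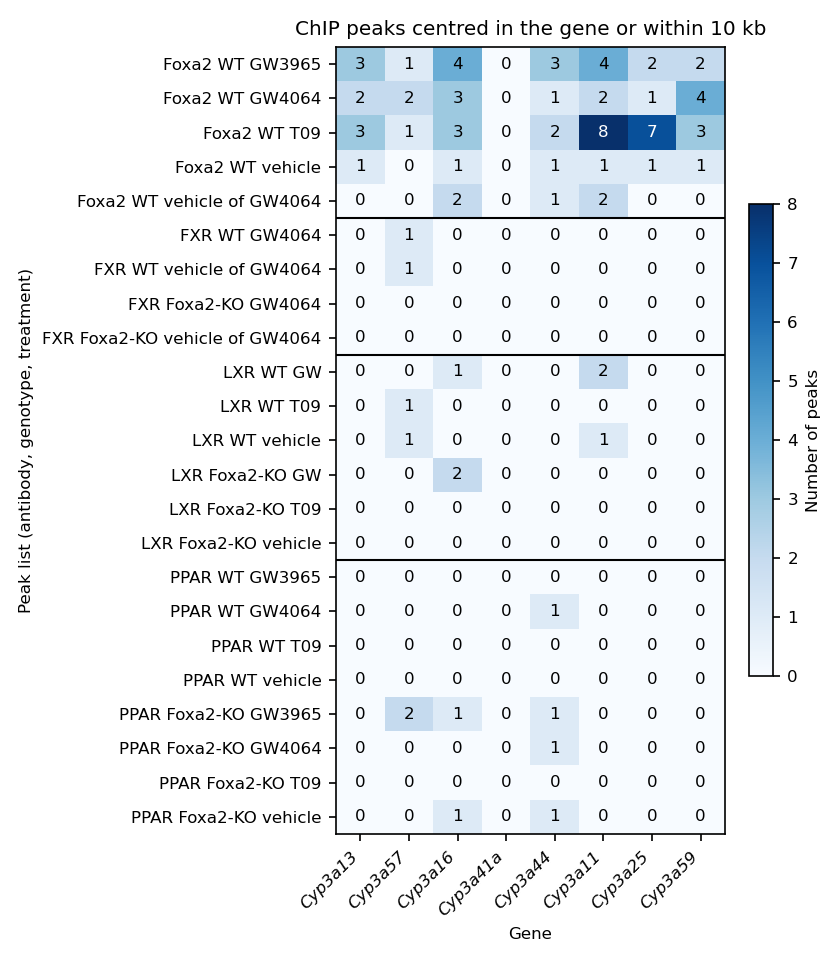
Number of ChIP peaks centred in each Cyp3a gene or within 10 kb of it (columns, in chromosome order with Cyp3a13 first) in each of the 23 ChIP lists (rows, with horizontal lines between antibodies). Foxa2 peaks fill 7 of 8 columns and reach 8 at Cyp3a11 and 7 at Cyp3a25 with T09, whereas FXR, LXR and PPAR cells hold 0 to 2.

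Cyp3a11 had 1 Foxa2 peak with vehicle, 2 with the vehicle of GW4064, 2 with GW4064, 4 with GW3965 and 8 with T09. Overlapping peaks of the 5 lists were merged into sites, and 9 sites resulted at Cyp3a11. The site found in every list lay upstream of the gene at chr5:145881042-145881600, 1.47 kb before the start site. A second recurring site lay inside the gene, at 12.22 to 12.26 kb past the start site, in every list but that of vehicle. A site 18.24 to 18.3 kb past the start site was in the GW3965 and T09 lists. Of the other 6 sites, 5 were in the T09 list alone, and 1, over the promoter, in the GW3965 list alone.

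Cyp3a25, another liver member of the family, had 1 Foxa2 peak with vehicle, 0 with the vehicle of GW4064, 1 with GW4064, 2 with GW3965 and 7 with T09. Of its 7 sites, 5 were in the T09 list alone. The widest of them, 1509 bp at chr5:145974691-145976199, lay just past the 3′ end of the gene and was entry 950 of the T09 list. The site in most lists was the promoter, in 4, and a site 8.79 to 8.82 kb upstream was in the GW3965 and T09 lists.

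The T09 list was the longest of the 5, which bears on its counts. Members held 27 of its 25318 peaks, or 1.07 per 1000 listed, against 0.894 per 1000 with GW3965, 0.662 with GW4064, 1.38 with vehicle and 0.684 with the vehicle of GW4064. Cyp3a11 and Cyp3a25 together took 0.592 per 1000 with T09, 0.282 with GW3965, 0.132 with GW4064, 0.46 with vehicle and 0.274 with the vehicle of GW4064. Relative to list length, the share of all 8 members was highest with vehicle, and that of Cyp3a11 and Cyp3a25 with T09, followed by vehicle. With vehicle these shares rest on 6 and 2 peaks, against 27 and 15 with T09, so the order is uncertain.

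Cyp3a16, a form of fetal and newborn liver, had 1 to 4 Foxa2 peaks per list. Its site in every list lay inside the gene at chr5:145454427-145455183, 14.92 kb past the start site, and was entry 873 of the T09 list. Cyp3a44, also female-predominant, had 1 to 3 peaks per list. Its site in every list was again within the gene, at chr5:145793155-145793644, 12.47 kb past the start site. These 2 genes and Cyp3a11 thus each had 1 constant site, which was intragenic at Cyp3a16 and Cyp3a44 and upstream at Cyp3a11.

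Cyp3a59 had 0 to 4 Foxa2 peaks per list, Cyp3a13 0 to 3 and Cyp3a57 0 to 2. None of the 3 had a peak with the vehicle of GW4064, and Cyp3a57 had none with vehicle either. The promoter peak recurred at each of them, in 4 lists at Cyp3a59 and Cyp3a13 and in 3 at Cyp3a57. Cyp3a13 also had a peak 0.83 to 0.84 kb before the start site in 3 lists, and Cyp3a59 one 8.91 to 8.94 kb before it in 3. At Cyp3a57 a second entry with GW4064 was 1 bp wide, and at Cyp3a59 one was 16 bp wide.

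Foxa2 peaks overlapped the promoter window itself, the 300 bp from 250 before to 50 after the start site, at 5 members with GW3965 (6.61% of 17492 coding promoters), 4 with GW4064 (2.77%), 4 with T09 (3.02%), 3 with vehicle (0.983%) and 0 with the vehicle of GW4064 (0.96%). Over the 5 lists these were Cyp3a11, Cyp3a13, Cyp3a25, Cyp3a57 and Cyp3a59 (7.56% of promoters had a peak in any list). The promoter peak of Cyp3a59 was at chr5:146078987-146079242 with GW3965, chr5:146078994-146079129 with GW4064, chr5:146079004-146079175 with T09 and chr5:146078999-146079216 with vehicle. That of Cyp3a25 was at chr5:146009666-146009949, chr5:146009818-146010057, chr5:146009685-146009843 and chr5:146009689-146009877 in the same order. At Cyp3a11 the promoter peak was in the GW3965 list alone, at chr5:145879936-145880171.

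Set beside the printed sequences, the promoters with recurring Foxa2 peaks were not the ones with the exact forkhead heptamer. Cyp3a13, Cyp3a25, Cyp3a57 and Cyp3a59 had a promoter peak in 3 or 4 lists and held neither heptamer in the 250 bases searched. Some of these peaks ran beyond those bases, where no sequence was searched. At Cyp3a13 the GW4064 peak, chr5:137921445-137921587, lay wholly outside the bases searched, chr5:137921620-137921869. No looser forkhead sequence was searched, so a promoter with neither heptamer may still hold one. Cyp3a16, Cyp3a41a and Cyp3a44 held TGTTTAC and had no promoter peak in any list. Their promoters were 91.3% to 94.4% identical to each other, and those of Cyp3a25, Cyp3a57 and Cyp3a59 were 88.9% to 94.8% identical. The contrast thus rests on few sequence families, and promoters within a family are not separate cases. Placement of reads that fit several of these sequences is not given, and its part in these promoter peaks or their absence was not tested. Cyp3a11 held TGTTTAC, and its 1 promoter peak covered it. The AGGTCA and TGACCT pair lay wholly inside the promoter peak in 3 lists at Cyp3a25, 2 at Cyp3a57 and 4 at Cyp3a59.

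The 34 Foxa2 sites in the 8 windows were spread through the genes: 7 lay within 1 kb of a start site, and 19 were in 1 list alone. A further 30 sites lay between the windows. Between Cyp3a11 and Cyp3a25, 2 sites found in all 5 lists lay 20.98 kb and 24.87 kb before the Cyp3a11 start site, at chr5:145900558-145901110 and chr5:145904581-145904866. Another was at chr5:145737669-145737920, 17.66 kb upstream of Cyp3a41a, so the absence of Foxa2 at that gene holds for the 10 kb window. Cyp3a41a and Cyp3a41b, a coding gene of the same cluster, were 99.6% identical over the promoter, and neither had a ChIP peak in the gene or a base in a gained region. How the authors placed reads that fit several near-identical genes is not given, and its part in these zeros was not tested.

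FXR was listed at 1 member, Cyp3a57, in WT. It had 1 peak with GW4064 (30.5% of coding genes had one), at chr5:145343718-145343938, 1.44 kb before the start site and entry 960. It also had 1 with vehicle (13.5%), at chr5:145349658-145349933, 4.53 kb past the start site and entry 3337. The positions differ, so no FXR site was shared by both treatments. In Foxa2-KO, 0 members had an FXR peak with GW4064 (6.8% of coding genes) and 0 with vehicle (7.84%). Over either list, the background was 35.9% in WT and 13% in KO, so the count of 1 of 8 in WT was below the share of all genes. The KO lists ended at a q of 0.015, and the limit of the WT lists, which carry no q, is not given. Counts of the genotypes may thus rest on unlike limits. Cyp3a11 and Cyp3a25 had no FXR peak within 10 kb in any list.

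LXR peaks at members were few and each was in 1 list. In WT, 2 members had one with GW (25.5% of coding genes), 1 with T09 (14.6%) and 2 with vehicle (9.38%), 3 members in all (36.3%). In Foxa2-KO, 1 member had one with GW (16.3%), 0 with T09 (7.85%) and 0 with vehicle (0.489%), so 1 in all (21.5%). Cyp3a11 held 2 peaks in WT with GW, one of 140 bp at chr5:145885764-145885903, 5.98 kb upstream, and one of 4 bp at chr5:145879783-145879786, 0.07 kb past the start site. It held 1 of 33 bp past its 3′ end with vehicle. Cyp3a57 held 1 with T09 and 1 with vehicle, and Cyp3a16 1 with GW in WT and 2 with GW in KO. The authors' q-values of these 8 peaks ran from 0.0214 to 0.048, where the largest q in lists of that antibody was 0.05.

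PPAR peaks were listed at Cyp3a44, Cyp3a16 and Cyp3a57. In WT, 1 member, Cyp3a44, had a peak with GW4064 (4.23% of coding genes), and 0 had one with GW3965 (0.274%), T09 (0.722%) or vehicle (4.12%), so 1 in all (8%). In Foxa2-KO, 3 members had one with GW3965 (4.56%), 1 with GW4064 (4.54%), 0 with T09 (3.64%) and 2 with vehicle (6.73%), so 3 in all (14.1%). At Cyp3a44, 4 lists each held 1 peak past the 3′ end, between 39.53 and 41.84 kb from the start site, and no pair of them overlapped. The entry of KO vehicle, at chr5:145764293-145764418, was number 352 in its list and the one nuclear receptor peak of a member among the first 500. The authors' q-values of the 8 PPAR peaks ran from 0.0227 to 0.0678.

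Gained accessibility was centred on Cyp3a11 and Cyp3a25, and on GW4064. In WT with GW4064, 90.9% of the Cyp3a11 body and 78.9% of the Cyp3a25 body lay inside gained regions. In Foxa2-KO with GW4064 the values were 58.3% and 64%. With GW3965 in WT they were 17.1% and 9.33%, and with T09 both were 0%. At a limit of 25% of the body, 2 members were covered with GW4064 in WT (1.94% of coding genes), 2 in KO (1.66%), 0 with GW3965 (2.26%) and 0 with T09 (1.54%). The values nearest that limit were 58.3% above it and 17.1% below it, both of Cyp3a11.

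**Figure D2:**
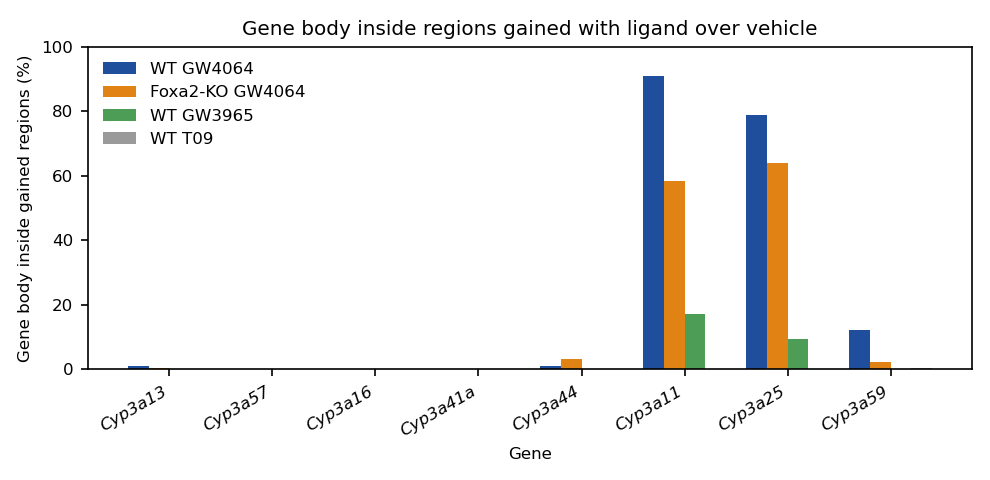
Percent of each gene body inside regions of gained accessibility (vertical axis, bars from 0) for the 8 Cyp3a genes and the 4 comparisons of ligand over vehicle; no bar has an error because each comparison was deposited as 1 list. Cyp3a11 and Cyp3a25 stand above 50% with GW4064 in both genotypes, and genes without visible bars are at or near 0.

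Cyp3a59 came next, at 12.1% with GW4064 in WT, 2.21% in KO, 0.38% with T09 and 0% with GW3965. Cyp3a44 was at 0.975% in WT and 3.09% in KO with GW4064, and 0% with either LXR agonist. Cyp3a13 was at 0.811% and 0.34% with GW4064 and 0% otherwise. Cyp3a57 had 0.0765% with GW3965 alone, and Cyp3a16 and Cyp3a41a were at 0% throughout. Any base of the body was covered at 5 members in WT with GW4064 (43.8% of coding genes), 5 in KO (48%), 3 with GW3965 (43.6%) and 1 with T09 (43.2%). The coverage was thus concentrated in neighbouring genes: of the bases gained within the cluster, 77.2% lay in the windows of Cyp3a11 and Cyp3a25 in WT with GW4064 and 90.8% in KO.

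Among all 21887 coding genes, 47 were covered as much as Cyp3a11 or more in WT with GW4064, that gene included, and 68 as much as Cyp3a25. In KO the numbers were 119 and 96. With GW3965, 752 genes reached the coverage of Cyp3a11 and 1316 that of Cyp3a25, where the median of all coding genes was 0%.

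The 2 genes also headed the GW4064 lists. In WT, the first 5 regions listed were all at Cyp3a11 or Cyp3a25, as were 8 of the first 10 and 13 of the first 20. The first entry was 5669 bp at chr5:145851476-145857144, over the 3′ end of Cyp3a11, and entry 3 was 8256 bp at chr5:145982353-145990608, inside Cyp3a25. That list carries no q-value, and the meaning of its order is not stated. In KO, which is in order of q, the first entry was 3549 bp at chr5:145973581-145977129, just past the 3′ end of Cyp3a25, with an authors' fold of 3.26 and q of 1.8463e-87. There, 1 of the first 5, 5 of the first 10 and 8 of the first 20 regions were at these genes. The best placed Cyp3a11 region in KO was entry 17, with a fold of 1.861. With GW3965 and with T09, 0 of the first 500 regions were at a member of the cluster.

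The authors' fold in KO was higher at Cyp3a25 than at Cyp3a11. It had a median of 2.568 over 23 regions at Cyp3a25 (1.518 to 5.849) and 1.8415 over 16 regions at Cyp3a11 (1.346 to 3.342). The median over all 82561 regions was 3.312 and over the first 100 it was 1.9095, so regions placed early by q were not those of high fold. With GW3965 in WT the medians were 3.212 over 21 regions at Cyp3a11 and 2.898 over 12 at Cyp3a25. Fold was not given for WT with GW4064, so the genotypes are compared by coverage alone.

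At both genes the KO regions lay almost wholly within the WT ones. Of the bases gained at Cyp3a11 and 10 kb around it, 28.3 kb in WT and 17.9 kb in KO, 17.6 kb were shared, which is 62% of the WT bases and 98.3% of the KO bases. At Cyp3a25 there were 32 kb in WT, 25.8 kb in KO and 24.1 kb in both, or 75.3% of WT and 93.4% of KO. Over the whole genome, 8.07% of the WT bases and 8.65% of the KO bases were shared. In WT, gained regions covered 62.6% of the Cyp3a11 window and 61.1% of the Cyp3a25 window. A KO region placed anywhere there would often overlap one, which the share over the whole genome does not allow for.

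The gap between the genotypes was widest at the 5′ end. Each body was divided into 5 equal parts from the 5′ end. At Cyp3a11 in WT with GW4064 the parts were covered at 87.9%, 92.6%, 90.4%, 93.4% and 90.3%. In KO they were at 0%, 88.6%, 66%, 83.1% and 54.1%. At Cyp3a25 they were at 53.6%, 89.7%, 66.9%, 100% and 84.5% in WT and 21.3%, 76.2%, 52.3%, 96.5% and 73.9% in KO. The KO values were below the WT values in every part of both genes, and the gap was 0% against 87.9% at the 5′ end of Cyp3a11. In the 10 kb upstream, coverage was 21.1% in WT and 1.98% in KO at Cyp3a11, and 20.1% and 7.43% at Cyp3a25. In the 10 kb past the 3′ end, where the genotypes differed least, it was 32.6% and 29.6%, and 44.1% and 43%. Each list is ligand over the vehicle of its own genotype, so 0% means no listed gain and does not mean closed chromatin. The KO list ended at a q of 0.05, and the limit of the WT list, which carries no q, is not given.

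**Figure D3:**
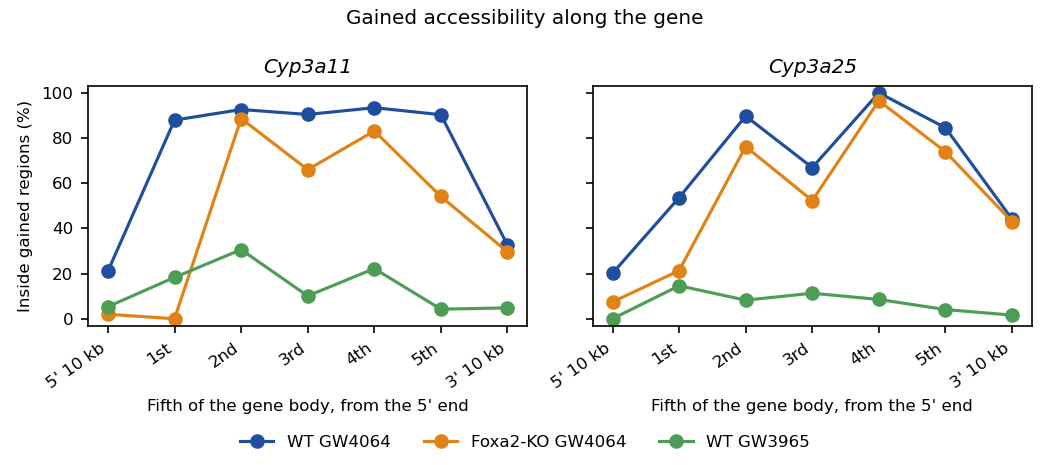
Percent of bases inside gained regions (vertical axis) in the 10 kb beyond each end and in 5 equal parts of the body, from the 5′ end, for Cyp3a11 (left) and Cyp3a25 (right); lines join parts of 1 list. With GW4064 the 5′ part of Cyp3a11 is at 87.9% in WT and 0% in KO, while the next part is at 92.6% and 88.6%.

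The 300 bp promoter windows showed the same. In WT with GW4064 the whole window lay inside a gained region at 3 members, Cyp3a11, Cyp3a25 and Cyp3a59 (5.36% of 17492 promoters). In KO it did at 0 members (3.98%), and none of their bases was gained. With GW3965 it did at 1 member, Cyp3a11 (8.65%), and with T09 at 0 (2.05%). As a description of how common this is, 61 coding genes were covered at 25% or more in both genotypes with GW4064, and 8 of them, Cyp3a11 and Cyp3a25 included, had a promoter wholly covered in WT and not at all in KO, while 7 others had the reverse. Over those 61 genes the 5′ part had a median coverage of 100% in WT and 94.5% in KO.

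Foxa2 sites lay within the gained chromatin at these genes. All 9 Foxa2 sites at Cyp3a11 and all 7 at Cyp3a25 overlapped regions gained with GW4064 in WT, and 6 and 4 of them did so in KO. At Cyp3a59, 2 of 5 did in WT and 0 in KO. Over the 8 genes, 18 of 34 sites overlapped regions gained with GW4064 in WT, 11 in KO, 3 with GW3965 and 0 with T09. Gained regions covered 62.6% of the whole Cyp3a11 window and 61.1% of the Cyp3a25 window in that list, so a site placed anywhere in them would often overlap one. The 10 Foxa2 sites that the T09 list alone held at Cyp3a11 and Cyp3a25 lay in no region gained with T09, whose 1 region near Cyp3a11 was 46 bp wide, 3.86 kb upstream, and whose 3 near Cyp3a25 lay beyond the 3′ end.

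Cyp3a59 had many small gained regions in WT with GW4064, 27 in all, of which the first listed was entry 38. In KO it had 8. Its promoter, 94.8% identical to that of Cyp3a25, lay in a WT region of 821 bp at chr5:146078710-146079530. How the authors placed reads that fit both sequences is not given, and its part in this value was not tested.

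Among the 11 other genes inside the cluster, Cyp3a63-ps, a pseudogene between Cyp3a16 and Cyp3a41a, held peaks of all 4 antibodies in 16 of the 23 ChIP lists. One of its Foxa2 sites, at chr5:145635036-145635589, was in all 5 Foxa2 lists. Gm8454, a pseudogene 5′ of Cyp3a25, was covered at 25% in WT with GW4064. The other 9 had peaks of at most 1 antibody in the body and coverage of 2.21% or less.

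Genes with the ChIP pattern most like that of a member were sought by the number of the 23 lists in which presence or absence of a peak agreed, then by distance over the 4 coverages (in percentage points). For Cyp3a11, listed in 7 of 23, Prox1, Tprkb and Trim17 agreed in all 23 lists at distances of 94, 96.6 and 104. For Cyp3a25, listed in 4, Insig2, Pgrmc1 and Gstm4 agreed in all 23 at 42, 76.2 and 78.4, among 121 genes that did so. The 121 genes were the same number for Cyp3a13 and Cyp3a59, whose ChIP pattern is the same as that of Cyp3a25. The nearest for Cyp3a13 were Zfp27, Mpzl2 and Kdm4b, and for Cyp3a59 Eps8l2, 2200002J24Rik and Tram1. Cyp3a57 was matched best by Fxyd7 in 22 lists and Cyp3a16 by 44 genes in 21. Of these, 5 tied at a distance of 0, Apon, Cyp2d26 and Fezf1 among them.

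Other genes of the xenobiotic response, a list of 24 regulators, enzymes and transporters, are given beside the Cyp3a genes, and the difference was not tested. With GW4064, covered at 25% or more were 6 of 24 in WT (Gstm1 95.3%, Ugt1a1 83.1%, Alas1 74.1%, Cyb5a 38.1%, Ces2a 35.6% and Abcc2 25.6%) and 0 of 24 in KO. Gstm1 and Ugt1a1 encode conjugating enzymes, Alas1 the first enzyme of haem synthesis and Abcc2 an export pump. Their highest value in KO was 12.3%, at Gstm1, against 58.3% and 64% at the 2 Cyp3a genes. With GW3965, 5 of 24 were covered (Ugt1a1 97.2%, Alas1 75.4%, Nr1i3 52.6%, Nr0b2 38.6% and Cyb5a 25.5%), and with T09, 4 (Alas1 88.4%, Ces2a 74.3%, Por 53.7% and Abcc2 28.4%). Nr1i2, the gene of the receptor PXR, was at 17.5% with GW4064 in WT and 2.27% in KO, and had FXR peaks in WT in both treatments. FXR peaks were at 14 of 24 in WT with GW4064 (30.5% of coding genes) and 10 with vehicle (13.5%). In KO they were at 3 with GW4064 (6.8%) and 4 with vehicle (7.84%). Foxa2 peaks were at 17 of 24 with vehicle (12.1%), 19 with the vehicle of GW4064 (17.8%), 22 with GW4064 (38.8%), and 23 with GW3965 (36.9%) and with T09 (39.2%). The median coverage over the 24 was 10.2% in WT with GW4064 and 0.501% in KO, where the median of all coding genes was 0% in both and that of the 8 Cyp3a genes 0.893% and 1.27%.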

How the data were processed

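The submitters' processing notes name BWA and mm10 without a version. Per the labels' design text, PeakSeq called ChIP peaks against input and ATAC regions against vehicle, with 1 list per group. Of the 27 lists, 19 hold the authors' q-value per peak and are sorted by it. Fold values (a ratio of signal to control) are the authors' and served to describe regions within a list. The 8 lists without q (5 Foxa2, 2 FXR of WT, and ATAC of WT with GW4064) were read in the order of their entries. Blank entries of the KO FXR lists, 7254 with GW4064 and 28147 with vehicle, were left out.

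Gene bodies came from the RefSeq table of GRCm38.p6, and start sites and sequences from its promoter table. The start site of Cyp3a13 there lies inside the gene body of the first table. A peak belonged to a gene when its centre lay in the body or within 10 kb, and lists of 1 antibody were merged into sites where peaks overlapped by at least 1 base. Background shares used 21887 coding genes, or 17492 with a promoter. In simulated lists, 200 of 200 peaks placed on genes were found. No test was run, since each group is 1 list. The named genes were the 8 members, the genes inside the cluster with peaks of 2 or more antibodies or 25% coverage, members of the xenobiotic list covered at 25% or more or with most lists, and up to 3 genes of like pattern (those for Cyp3a44 are not reported here). Nr1i2 was named outside that rule, after its values were seen, as was the pair of receptor half-sites with 15 bases between. Members, lists and limits were chosen with earlier results of these data known. RNA-seq samples were not analysed here. Analyses used python 3.11.15, numpy 2.4.6 and matplotlib 3.10.9, and promoters were aligned with biopython 1.88.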

Additional observations from a re-analysis of the deposited data

How the results depend on the processing

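No paired analysis was possible because each value comes from 1 list per group or comparison and from no test, and for the same reason no replicate could be left out. Depth is unknown, so a gene with no peak may lie under the limit of its list. Of 67 alternative values of the 11 main counts of members, 42 stayed within 1.5 times the main count or were equal to it, and 25 moved. Of 154 such values for single lists, 53 moved. Some values could not have moved, since a main count of 0 stays at 0 under any stricter setting. The share that stayed is thus no measure of stability. Shares of all coding genes were not computed for the alternative settings below, so those counts cannot be set against a background. A window of 50 kb can only add members to those of 10 kb. The gene body alone gave 4 members in place of 7 for Foxa2 with GW3965, 3 in place of 6 with vehicle, and 0 in place of 1 for FXR in WT with GW4064, and 50 kb gave 6 in place of 3 for Foxa2 with the vehicle of GW4064. Restricting each list to its first 500 peaks gave 0 members for Foxa2 in WT, 0 for FXR in WT, 0 for LXR in WT, 0 for LXR in KO, 0 for PPAR in WT and 1 for PPAR in KO. With q at or under 0.01, 0 members had a peak for LXR in WT, LXR in KO, PPAR in WT and PPAR in KO. The 5 Foxa2 lists and the 2 FXR lists of WT have no q and gave no such value. A window of 50 kb gave 3 members for FXR in WT and 2 in KO, 6 for LXR in WT and 7 in KO, and 2 for PPAR in WT and 5 in KO. The gene body alone (0 kb) gave 1 for LXR in WT, 0 for LXR in KO and 0 for PPAR in WT, and 5 kb gave 0 for PPAR in WT. Counting any gained region centred within 10 kb gave 3 members with GW3965, 4 with T09, 5 with GW4064 in WT and 6 in KO, and a limit of 10% gave 1 with GW3965. At limits of 10% and 50%, Cyp3a11 and Cyp3a25 stayed the covered genes with GW4064 in either genotype, joined at 10% in WT by Cyp3a59. Leaving out the 102 regions shared by all 4 antibodies moved no count, since none lies in a member's window.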
